A study of Mus musculus with 12 samples.

Results

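The genes described are 8 proteins that astrocytes release and that are known to organize synapses: the thrombospondins Thbs1, Thbs2 and Thbs4, the matricellular proteins Sparc and Sparcl1 (hevin), the glypicans Gpc4 and Gpc6, and the BMP antagonist Chrdl1. They were chosen by name, with earlier results of these data known, and matched through Ensembl identifiers. All 8 were among the 41388 genes of the count files. Values are CPM, a gene's reads scaled to the total of its library, unless stated. Whole brains of C57BL/6 mice of the strain Bmal fl/fl; ALDH1L1-CreERT2 were digested at 7 months of age, and magnetic beads against ACSA-2, an astrocyte surface antigen, separated astrocytes from the cells that stayed behind, called flowthrough. At 2 months of age every mouse, with or without Cre, had been gavaged with 2 mg of tamoxifen daily on 5 days. Cre-positive mice (aKO) carry a Cre recombinase under Aldh1l1, an astrocyte gene, which removes a floxed part of Bmal1 (Arntl), a transcription factor of the circadian clock, when tamoxifen is given. Cre-negative mice (WT) share the floxed alleles and the tamoxifen. The groups were aKO astrocytes (animals 203, 205, 208, 221 and 222), WT astrocytes (201, 202 and 265), aKO flowthrough (203 and 205) and WT flowthrough (201 and 202). The astrocyte library of animal 202 is WT by its title and knockout by its genotype field; it was treated as WT, which is what its title, the 202 flowthrough and the group sizes in the series' design give. The letter b in the flowthrough titles has no stated meaning, so what it marks cannot be told apart from the fraction.

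As background, astrocytes release these proteins in developing and adult brain. Thrombospondins act through the neuronal calcium channel subunit alpha2delta-1 (Cacna2d1) and build synapses that are structurally normal but postsynaptically silent. Hevin bridges neurexin and neuroligin across the cleft, whereas Sparc opposes hevin. Gpc4 and Gpc6 recruit GluA1-containing AMPA receptors, with Gpc4 acting through presynaptic receptor phosphatases and neuronal pentraxin 1, and Chrdl1 matures synapses by recruiting GluA2. Because the deposited values are whole-gene RNA levels of bulk fractions, fewer cells of a type and less RNA per cell cannot be told apart in any result.

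Library totals were 21816637 to 62655238 counts in astrocytes and 33019572 to 53868165 in flowthrough. Mitochondrially encoded genes took 11.1% to 36.5% of counts in astrocytes and 4.81% to 12.9% in flowthrough, and the choroid plexus transcript Ttr took 1.20% to 17.0% in astrocytes and 8.17% to 32.1% in flowthrough. Arntl, the targeted gene, was listed at 5.05 to 25.0 CPM in aKO astrocytes, against 2.13 to 6.80 CPM in WT astrocytes, and at 1.57 to 3.49 CPM in aKO flowthrough, against 3.21 to 4.39 CPM in WT flowthrough; a whole-gene count also holds reads outside the floxed part, so it checks neither the deletion nor the labels. The summed CPM of 12 astrocyte markers was 3183 to 15148 in astrocytes and 226 to 5206 in flowthrough, and 11 of the 12 passed as higher in astrocytes. All 12 microglial and all 12 leukocyte markers passed as lower in astrocytes, with microglial sums of 362 to 797 CPM in astrocytes and 6183 to 11983 CPM in flowthrough. Markers of cells other than astrocytes were also present in the astrocyte fraction: 10 of 12 oligodendrocyte and 5 of 12 neuronal markers passed as higher there. The oligodendrocyte sum was 3773 to 23326 CPM in astrocytes and 956 to 6691 CPM in flowthrough. A list that mixes markers of Bergmann glia, which are cerebellar astrocytes, with cerebellar granule markers had 7 of 10 higher in astrocytes. The defining markers Aldh1l1, Aqp4, Cldn5, Pdgfrb, Col1a1, Tmem119, Pf4, Mog and Snap25 were above 0 in every library. The leading principal component of the astrocyte libraries, with 32.6% of the variance, separated aKO 222 and WT 265 from the other 6; they had the lowest astrocyte marker sums, 4923 and 3183 CPM.

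Bmal1 pairs with CLOCK on the E-box CACGTG, so the sequence before the RefSeq start of each gene was read where windows of GRCm38.p6 were at hand, for Thbs2, Thbs4, Sparc and Gpc4. For Gpc4 the GENCODE gene span given with its values starts farther upstream, and the window lies inside that span. CACGTG, which reads alike on both strands, was in none of these 4 windows of 250 bases and in 6.02% of 32851 promoter windows of the same length; no match says only that these letters are not in this window. The windows of Thbs4 and Sparc are shown because they differ in composition and belong to the least and one of the most abundant of the 8 transcripts. They lie at chr13:92794819-92795068 and chr11:55420081-55420330, both on the minus strand, and are printed in the direction of transcription with every CG dinucleotide in capitals.
Thbs4: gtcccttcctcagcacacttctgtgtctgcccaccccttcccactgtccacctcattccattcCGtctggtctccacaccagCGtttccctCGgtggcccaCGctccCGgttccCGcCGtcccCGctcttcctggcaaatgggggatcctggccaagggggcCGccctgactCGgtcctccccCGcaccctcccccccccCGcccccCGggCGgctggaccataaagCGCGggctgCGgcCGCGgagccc
Sparc: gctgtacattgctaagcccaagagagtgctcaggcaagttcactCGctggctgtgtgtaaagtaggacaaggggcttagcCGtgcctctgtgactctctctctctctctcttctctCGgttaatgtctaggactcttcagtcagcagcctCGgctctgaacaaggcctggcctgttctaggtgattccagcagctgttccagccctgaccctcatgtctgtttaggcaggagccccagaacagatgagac
The Thbs4 window holds 19 CG and is 70.8% G or C, while the Sparc window holds 4 CG and is 54% G or C; the median window holds 6 CG. GGGCGG, searched on both strands, occurs 3 times before Thbs4, 1 time before Gpc4 and not before Sparc or Thbs2, and is in 32.7% of promoter windows. These matches are descriptions of sequence, and no measurement of binding was used.

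Per unit of gene length, the SPARC pair stood far above the rest. In astrocytes Sparcl1 averaged 952 ± 518 RPKM and Sparc 944 ± 417 RPKM (SD, n = 8), which put them at ranks 67 and 68 of the 31595 genes with any reads. Gpc4 followed at 3.26 ± 1.78 RPKM, Chrdl1 at 2.01 ± 0.975, Gpc6 at 1.71 ± 0.638, Thbs2 at 1.32 ± 0.563, Thbs1 at 0.936 ± 0.684 and Thbs4 at 0.606 ± 0.246 RPKM. Sparc was above Gpc4 in all 8 astrocyte libraries, whereas every other pair of neighbours in this order lay within its spread; Sparcl1, for example, was above Sparc in 4 of 8. In flowthrough the order was Sparc at 912 ± 459 RPKM, Sparcl1 at 256 ± 325, Gpc4 at 2.32 ± 0.759, Thbs1 at 1.67 ± 0.533, Thbs2 at 0.484 ± 0.0729, Gpc6 at 0.467 ± 0.0921, Chrdl1 at 0.254 ± 0.412 and Thbs4 at 0.0616 ± 0.0683 RPKM (SD, n = 4). Sparc was above Sparcl1, Sparcl1 above Gpc4 and Thbs1 above Thbs2 in all 4 flowthrough libraries. The SPARC pair together held 98.0% to 99.6% of the counts of the 8 genes in astrocytes and 97.9% to 99.5% in flowthrough, so a sum over the 8 genes is in effect a sum over this pair.

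Set against flowthrough, isolated astrocytes held more RNA of 5 of the 8 genes, namely Chrdl1, Thbs4, Sparcl1, Gpc6 and Thbs2, and less of Thbs1, while Sparc and Gpc4 did not pass the test. The question was whether the transcripts go with the ACSA-2-positive fraction, with both genotypes weighted equally in an edgeR quasi-likelihood fit of all 12 libraries and Benjamini-Hochberg adjustment over 20637 genes. By that rule 17% of all genes tested were called, 8.52% as higher and 8.52% as lower. The fit held no term for the animal, although 4 animals gave both fractions, so it ignores that pairing. A block for the animal was an alternative. All 8 genes passed the count filter, and their median log2 fold change was 1.33, against 0.07 over all genes tested. Gpc6 was the gene among the 8 whose CPM ranges did not overlap between the fractions, a pattern that 10.9% of all genes tested showed, 6.34% as higher in astrocytes. All 8 genes and the 4 groups are drawn in the plot of CPM by library.

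**Figure D1:**
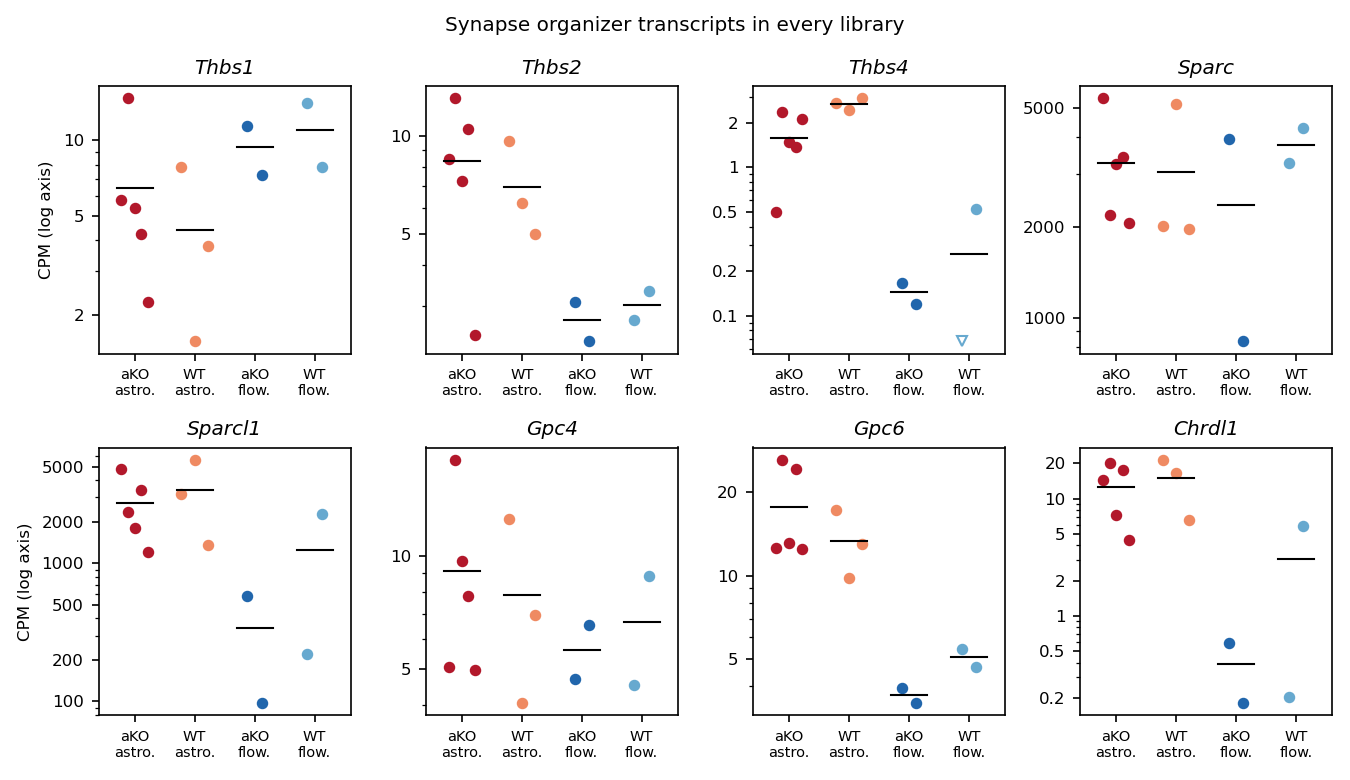
CPM of each gene (log axis, scale differs between panels) in aKO astrocytes (n = 5), WT astrocytes (n = 3), aKO flowthrough (n = 2) and WT flowthrough (n = 2). Each filled point is a library, the line is the group's mean, and the open triangle marks the limit of 3 counts (0.0674 CPM) in the WT flowthrough library with 0 counts of Thbs4. Gpc6 lies at 9.84 CPM or more in every astrocyte library and at 5.46 CPM or less in every flowthrough library.

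Among the thrombospondins, which are trimeric or pentameric glycoproteins of the extracellular matrix, the fractions differed in opposite directions. Thbs1 (chr2:118111876-118127133, plus strand, GRCm38) was at 5.78, 14.7, 5.34, 4.23 and 2.26 CPM in aKO astrocytes 203, 205, 208, 221 and 222, at 7.79, 1.57 and 3.77 CPM in WT astrocytes 201, 202 and 265, at 11.5 and 7.27 CPM in aKO flowthrough 203 and 205 and at 14.1 and 7.79 CPM in WT flowthrough 201 and 202. Most astrocyte libraries were below all flowthrough libraries, but aKO 205 was the highest of all 12, so the fractions overlap. Thbs1 was lower in astrocytes by a log2 fold change of -1.28 ± 0.40 (SE, edgeR adjusted p = 0.0387), and within the 4 brains it was lower in 3, with astrocyte-to-flowthrough ratios of 0.504 in aKO 203, 0.551 in WT 201 and 0.202 in WT 202, and higher in aKO 205 at 2.03. The adjusted p lay above 0.05 when any of the astrocyte libraries aKO 203, aKO 208, aKO 221, WT 202 or WT 265, or of the flowthrough libraries aKO 203, aKO 205 or WT 201, was left out, with the highest, 0.252, without WT flowthrough 201 (log2 fold change -0.95). It was also above 0.05 with library totals in place of TMM (0.190), with library 202 as aKO (0.0824), without aKO 222 and WT 265 (0.0694), without aKO 221 and aKO 222 (0.0767) and on the 8 libraries of the 4 shared animals with no block (0.191). An exon stretch of 208 bases (3.43% of its exons) overlaps Gm29233 on the other strand, whose reads may not be told apart from those of Thbs1.

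Thbs2, the close relative of Thbs1 that is likewise strong in developing astrocytes, went the other way. It was at 8.48, 13.0, 7.24, 10.5 and 2.44 CPM in aKO astrocytes and 9.64, 6.21 and 4.98 CPM in WT astrocytes, against 3.08 and 2.33 CPM in aKO flowthrough and 2.72 and 3.32 CPM in WT flowthrough. All astrocyte libraries but aKO 222 were above all flowthrough libraries, and the log2 fold change was 1.12 ± 0.35 (SE, edgeR adjusted p = 0.0387). Astrocytes held more in all 4 brains, by 1.87 to 5.59 times. Leaving out any of the astrocyte libraries aKO 203, aKO 205, aKO 208, aKO 221, WT 201 or WT 202 or any of the 4 flowthrough libraries ended the call, with estimates of 1.04 to 1.18 and adjusted p of 0.0552 to 0.155, and so did fitting without the count filter (adjusted p = 0.0539) and counting library 202 as aKO (1.11, adjusted p = 0.0501).

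Thbs4, the form known from adult and injury-responsive astrocytes, was the least abundant of the 8 and rested on few reads. Astrocyte libraries held 11 to 77 reads in aKO and 73 to 170 in WT, and flowthrough libraries held 9 and 4 in aKO and 0 and 20 in WT. In CPM this was 0.504, 2.35, 1.49, 1.38 and 2.13 in aKO astrocytes and 2.71, 2.43 and 2.93 in WT astrocytes, against 0.167 and 0.121 in aKO flowthrough and 0 and 0.523 in WT flowthrough. All astrocyte libraries but aKO 203 were above all flowthrough libraries. Thbs4 was higher in astrocytes by a log2 fold change of 3.20 ± 0.75 (SE, edgeR adjusted p = 0.00771), a call that held in all 23 alternatives at 2.71 to 6.31; the highest was without WT flowthrough 202, which leaves a single WT flowthrough library, the one with 0 counts. Within brains the astrocyte level was 3.02, 19.4 and 4.64 times that of flowthrough in aKO 203, aKO 205 and WT 202 and at least 40.2 times in WT 201, where 3 counts stood in for 0.

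Of the SPARC pair, Sparcl1 was called between the fractions and Sparc was not. Sparcl1, or hevin (chr5:104079111-104114088, minus strand), was at 4839, 2364, 1788, 3382 and 1196 CPM in aKO astrocytes and 3168, 5612 and 1359 CPM in WT astrocytes, against 580 and 97.7 CPM in aKO flowthrough and 221 and 2284 CPM in WT flowthrough. WT flowthrough 202 was the flowthrough library that reached into the astrocyte range. The log2 fold change was 2.05 ± 0.67 (SE, edgeR adjusted p = 0.0461), and astrocytes held 2.46 to 24.2 times more in the 4 brains. The call ended without any of the astrocyte libraries aKO 203, aKO 205, aKO 221, WT 201 or WT 202 or the flowthrough libraries aKO 205 or WT 201 (estimates of 1.63 to 2.12, adjusted p of 0.0558 to 0.181) and with the size factors of DESeq2 (adjusted p = 0.0538), with library 202 as aKO (1.84, adjusted p = 0.0792) and without aKO 221 and aKO 222 (adjusted p = 0.0619). It held at 2.86 with the animal as a block (adjusted p = 0.00216), and leaving out WT flowthrough 202 or aKO flowthrough 203 gave 3.21 or 2.855. Gm26703, on the other strand, shares 201 exon bases (6.45%) with Sparcl1.

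Sparc (chr11:55394500-55420080, minus strand), the collagen-binding protein that antagonizes hevin and is also strong in endothelium and microglia, was at 5374, 2201, 3254, 3421 and 2057 CPM in aKO astrocytes and 2013, 5147 and 1965 CPM in WT astrocytes, against 3915 and 834 CPM in aKO flowthrough and 3272 and 4262 CPM in WT flowthrough. The fractions overlapped over most of their range, with aKO flowthrough 205 lowest of all 12. The log2 fold change was -0.10 ± 0.49 (SE, edgeR adjusted p = 0.905), and its sign turned in several alternatives. The ratio of Sparcl1 to Sparc in CPM was 0.550 to 1.07 in aKO astrocytes and 0.692 to 1.57 in WT astrocytes, against 0.148 and 0.117 in aKO flowthrough and 0.0675 and 0.536 in WT flowthrough. CPM is not per length, so the ratio sets libraries side by side, not the genes. It was above all flowthrough values in every astrocyte library, but narrowly, at 0.550 in aKO astrocyte 208 against 0.536 in WT flowthrough 202. How many other pairs of genes show this was not computed. Whether Sparcl1 and Sparc differ from each other between the fractions was not tested.

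Of the glypicans, heparan sulfate proteoglycans that are anchored to the membrane and shed, Gpc6 went with the astrocyte fraction and Gpc4 did not pass. Gpc6 (chr14:116925297-117979529, plus strand) was at 12.6, 26.2, 13.1, 24.3 and 12.4 CPM in aKO astrocytes and 17.2, 9.84 and 13.1 CPM in WT astrocytes, against 3.95 and 3.48 CPM in aKO flowthrough and 5.46 and 4.70 CPM in WT flowthrough. Every astrocyte library was above every flowthrough library. The log2 fold change was 1.54 ± 0.29 (SE, edgeR adjusted p = 0.00166), it stayed between 1.45 and 1.82 and past the threshold in all 23 alternatives, and all 4 brains showed it, at 2.09 to 7.52 times. Gpc4 (chrX:52053021-52165252, minus strand) was at 5.04, 18.1, 9.68, 7.83 and 4.96 CPM in aKO astrocytes and 12.5, 4.05 and 6.95 CPM in WT astrocytes, against 4.70 and 6.54 CPM in aKO flowthrough and 4.52 and 8.83 CPM in WT flowthrough. Its fractions overlapped, the log2 fold change was 0.16 ± 0.36 (SE, edgeR adjusted p = 0.792), and the ratio within brains ran from 0.459 in WT 202 to 2.78 in WT 201. Whether Gpc6 and Gpc4 differ from each other in this was not tested.

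Chrdl1 (chrX:143285674-143394262, minus strand), a secreted antagonist of bone morphogenetic proteins, showed the largest estimate of the 8. It was at 14.3, 20.1, 7.27, 17.4 and 4.44 CPM in aKO astrocytes and 21.5, 16.7 and 6.59 CPM in WT astrocytes, against 0.594 and 0.182 CPM in aKO flowthrough (32 and 6 reads) and 0.202 and 5.88 CPM in WT flowthrough (9 and 225 reads). WT flowthrough 202 was above astrocyte library aKO 222 and below the other astrocyte libraries; the other 3 flowthrough libraries lay far below all astrocytes. The log2 fold change was 3.40 ± 0.68 (SE, edgeR adjusted p = 0.00266), past the threshold in all 23 alternatives at 2.94 to 5.25, the highest without WT flowthrough 202. Within brains the ratio was 24.1 in aKO 203, 111 in aKO 205, 106 in WT 201 and 2.84 in WT 202, as the plot of within-brain ratios shows.

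**Figure D2:**
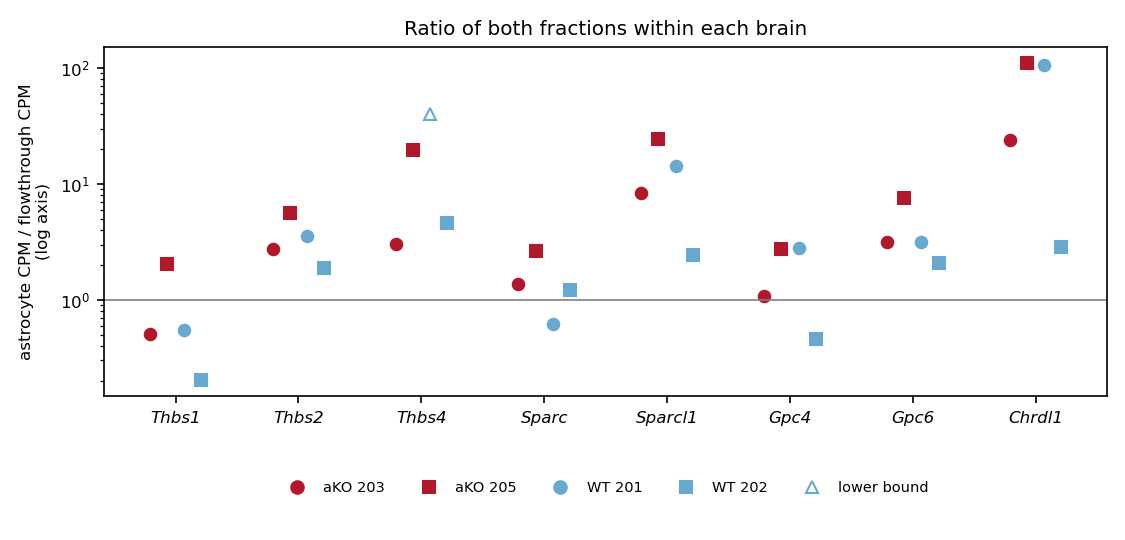
Astrocyte CPM divided by flowthrough CPM of the same animal (log axis) for each gene in aKO 203, aKO 205, WT 201 and WT 202; the line marks a ratio of 1 and the open triangle is a lower bound from 3 counts. Thbs2, Thbs4, Sparcl1, Gpc6 and Chrdl1 lie above 1 in all 4 animals, and Thbs1 lies below 1 in 3 of 4. The share of all genes above 1 in all 4 animals was not computed. The ratios, here and in the text, use library totals without TMM. With library totals the fit of all 12 libraries put the median log2 fold change of all genes at 0.34, against 0.07 with TMM, which favours ratios above 1.

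The flowthrough libraries with the most Sparcl1 and Chrdl1 were also those with the most astrocyte marker RNA. The astrocyte marker sum was 1406 and 226 CPM in aKO flowthrough 203 and 205 and 450 and 5206 CPM in WT flowthrough 201 and 202, in the same order as Sparcl1. In the 8 astrocyte libraries, Sparcl1 and the astrocyte marker sum, both as log2(CPM + 1), had a Pearson r of 0.93 and a Spearman rho of 0.98, and r was again 0.93 without the 2 libraries farthest from the median of Sparcl1. Sparc had an r of 0.72 with that sum (0.48 without 2), Chrdl1 0.80 (0.55), Gpc6 0.16 and Gpc4 -0.06. Of the 13 marker sums, Sparc had its highest r with the neuronal sum, 0.87 (0.78 without 2). With the oligodendrocyte sum Sparcl1 had 0.78 (0.77) and Chrdl1 0.75 (0.029), below their r with the astrocyte sum. Gpc4 had its highest r with the fibroblast sum, 0.88 (0.83), followed by the microglial sum, 0.85 (0.85). For Gpc6 the highest was with the microglial sum, 0.80 (0.82). These values describe 8 libraries that share preparation and composition, and the part of other cells' RNA in the levels was not tested.

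**Figure D3:**
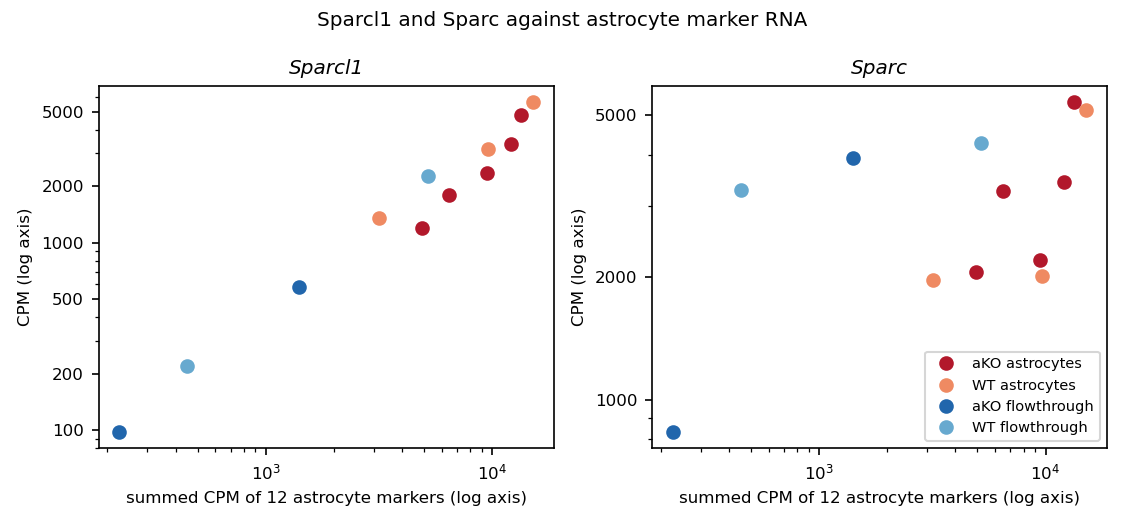
CPM of Sparcl1 (left) and Sparc (right) against the summed CPM of 12 astrocyte markers in all 12 libraries (both axes log), by group. Sparcl1 is lowest at 97.7 CPM in the library with the lowest marker sum, 226 CPM, and highest at 5612 CPM in the library with the highest, 15148 CPM, while Sparc is at 3272 CPM in a flowthrough library with a marker sum of 450 CPM.

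The comparison for which the series was made, isolated astrocytes of aKO against WT mice, gave no call for any of the 8 genes. Over all genes tested by edgeR 0.0264% were called, 5 of 18950, with 299 (1.58%) at an unadjusted p under 0.05; DESeq2 called 15. The median log2 fold change of the 8 genes was -0.000765, with 4 estimates above 0 and 4 below, against 0.02 over all genes tested. Each adjusted p was 0.9997 by edgeR, and the unadjusted p of all 8 were above 0.05, the lowest 0.103 for Thbs4. Thbs4 averaged 1.57 ± 0.726 CPM in aKO astrocytes and 2.69 ± 0.253 CPM in WT astrocytes (SD, n = 5 and n = 3), a log2 fold change of -0.89 ± 0.52 (SE). All 5 aKO libraries were below all 3 WT libraries for Thbs4, as 0.343% of genes tested were, and 1.41% had no overlap in either direction. With library 202 counted as aKO, as its genotype field has it, the estimate was -0.74. Markers of other cells moved between these groups without any being called: all 12 oligodendrocyte and all 10 endothelial markers had estimates above 0 and all 10 ependymal markers below 0. Of the 12 astrocyte markers 3 had estimates above 0 and 9 below, with a median of -0.13. Each of the remaining marker lists had estimates on both sides of 0. The oligodendrocyte sum was 3829 to 23326 CPM in aKO astrocytes and 3773 to 12832 CPM in WT astrocytes, the endothelial sum 603 to 1117 CPM in aKO and 402 to 738 CPM in WT, and the ependymal sum 741 to 1564 CPM in aKO and 691 to 2794 CPM in WT; their part in the estimates was not tested.

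The other 7 estimates in astrocytes were smaller than their errors. Thbs1 averaged 6.47 ± 4.82 CPM in aKO astrocytes and 4.38 ± 3.15 CPM in WT astrocytes, with a log2 fold change of 0.40 ± 0.51 (SE). Thbs2 averaged 8.33 ± 3.96 CPM in aKO and 6.94 ± 2.41 CPM in WT, at 0.09 ± 0.40. Both overlap over most of their range, as do the SPARC pair. Sparc averaged 3261 ± 1329 CPM in aKO and 3042 ± 1823 CPM in WT, at -0.07 ± 0.56, and Sparcl1 2714 ± 1436 CPM in aKO and 3380 ± 2135 CPM in WT, at -0.49 ± 0.57. Gpc4 averaged 9.12 ± 5.39 CPM in aKO and 7.85 ± 4.32 CPM in WT, at 0.07 ± 0.42. Gpc6 averaged 17.7 ± 6.90 CPM in aKO and 13.4 ± 3.69 CPM in WT, at 0.25 ± 0.33, and its 2 highest libraries, aKO 205 and aKO 221, were above all WT libraries. Chrdl1 averaged 12.7 ± 6.67 CPM in aKO and 14.9 ± 7.63 CPM in WT, at -0.40 ± 0.41 (SE); its lowest values in either group were in aKO 222 and WT 265, the libraries with the least astrocyte marker RNA. A p that misses the threshold does not show that the levels are alike, and standard errors of 0.33 to 0.57 on the log2 scale say how wide the estimates are.

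**Figure D4:**
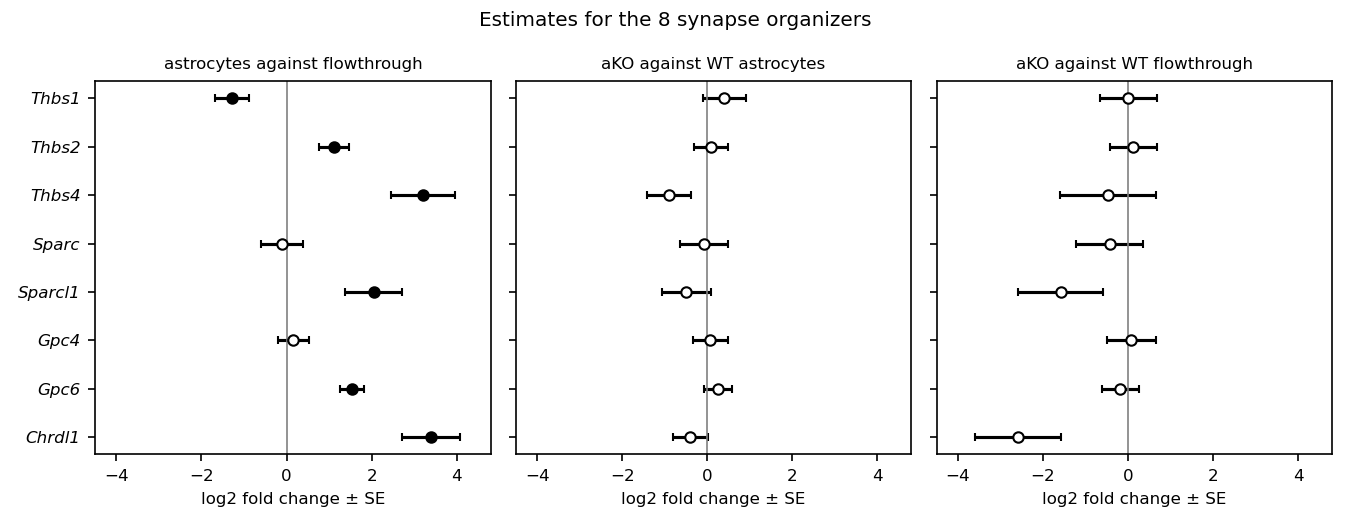
Log2 fold change ± SE of the 8 genes in astrocytes against flowthrough (left), aKO against WT astrocytes (middle) and aKO against WT flowthrough (right), each as the group named first over the group named second. Filled points have an edgeR adjusted p under 0.05; 6 are filled on the left and none in the other panels.

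In flowthrough, with 2 libraries a group, none of the 8 genes was called between aKO and WT. On simulated counts 0% of the genes changed 2-fold or 4-fold passed here, and 0% in the difference of effects between fractions. The lack of a call in either therefore cannot show that levels are alike. Over all 20637 genes tested 0% were called by edgeR and by DESeq2 and limma voom, and 817 (3.96%) had an unadjusted edgeR p under 0.05. Chrdl1 had the lowest unadjusted p of the 8, at 0.0208 (edgeR adjusted p = 0.804), with a log2 fold change of -2.58 ± 1.01 (SE). Its values were 0.594 and 0.182 CPM in aKO and 0.202 and 5.88 CPM in WT, so WT flowthrough 202 alone stood high. Without that library the estimate was 1.12. Sparcl1, at 580 and 97.7 CPM in aKO and 221 and 2284 CPM in WT, was at -1.59 ± 1.01, and without WT flowthrough 202 at 0.74. All 12 astrocyte markers had estimates below 0 in aKO flowthrough, and their part in the values of Chrdl1 and Sparcl1 was not tested. Gpc6 was at 3.95 and 3.48 CPM in aKO and 5.46 and 4.70 CPM in WT without overlap, as 32.7% of genes tested were (20.3% as lower in aKO), at -0.18 ± 0.44. The other 5 estimates ran from -0.47 for Thbs4 to 0.13 for Thbs2. The difference of the aKO effect between astrocytes and flowthrough was called for none of the 8 genes, at most 2.16 ± 1.19 (SE) for Chrdl1 with an edgeR adjusted p of 0.956; 0% of the 20637 genes were called by edgeR, with 499 (2.42%) at an unadjusted p under 0.05, and 0 by DESeq2 and limma voom.

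Relatives and partners of the 8 genes were followed in 8 lists of 61 genes, all of them tested between fractions. Of these 29 passed as higher and 2 as lower in astrocytes against flowthrough. Of all genes tested 8.52% passed as higher and 8.52% as lower. The lists were chosen with earlier results of these data known, so an excess over these shares is not independent support. Over the alternatives 17 to 34 passed as higher and 2 to 3 as lower, with 17 higher without aKO flowthrough 205 and 19 without WT flowthrough 201. Among genes of the proteins that hevin links, all 6 listed passed as higher, with a list median log2 fold change of 2.10. Nlgn1, a postsynaptic adhesion protein, averaged 13.4 ± 5.03 CPM in astrocytes and 1.92 ± 2.25 CPM in flowthrough (SD, n = 8 and n = 4), at 2.82 ± 0.53 (SE, edgeR adjusted p = 0.00150), and Nlgn3 was at 2.24 ± 0.48. Glypican partners and AMPA receptor subunits had 8 of 12 higher and none lower. Gria2, which encodes the GluA2 subunit, averaged 80.7 ± 35.0 CPM in astrocytes and 7.47 ± 5.31 CPM in flowthrough, at 3.20 ± 0.48 (SE, edgeR adjusted p = 2.03e-04), and the receptor phosphatase gene Ptprd was at 2.07 ± 0.33. The neuronal marker sum was 465 to 1832 CPM in astrocytes and 69.2 to 713 CPM in flowthrough, and its part in these partners was not tested.

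Of 7 thrombospondin receptors, Cacna2d1, the alpha2delta-1 subunit, passed, at 10.4 ± 2.41 CPM in astrocytes and 2.98 ± 0.597 CPM in flowthrough and a log2 fold change of 1.53 ± 0.32 (SE, edgeR adjusted p = 0.00365). Lrp1, an endocytic receptor, was at -0.72 ± 0.37 and did not pass. Neither Thbs3 (0.38 ± 0.30) nor Comp (-1.45 ± 0.55, edgeR adjusted p = 0.0784), the other thrombospondins, was called; Comp was called with DESeq2, with library 202 as aKO and without astrocyte library aKO 222, at adjusted p of 0.0323 to 0.0488. In the wider SPARC family 3 of 6 were higher, with the testican genes Spock3 at 2.36 ± 0.43 and Spock1 at 1.90 ± 0.42 (SE). Of 4 other glypicans Gpc5 passed, at 28.2 ± 13.6 CPM in astrocytes and 4.38 ± 6.21 CPM in flowthrough and 2.81 ± 0.63 (SE, edgeR adjusted p = 0.00600; 0.0509 without aKO flowthrough 205), and Gpc1 did not, at 0.85 ± 0.32, although it did with the animal as a block (1.12, edgeR adjusted p = 0.0177) and without WT flowthrough 202 (1.22, edgeR adjusted p = 0.0281). Among 12 chordins and members of BMP signalling 3 were higher, the receptor Bmpr1b at 2.75 ± 0.65, the antagonist Chrd at 1.72 ± 0.41 and Bmpr2. Other secreted factors had 7 of 12 higher and 2 lower. The proteoglycan Bcan averaged 109 ± 71.4 CPM in astrocytes and 10.4 ± 11.0 CPM in flowthrough, at 3.23 ± 0.65. The cytokine Tgfb1 averaged 0.300 ± 0.350 CPM in astrocytes and 11.7 ± 15.4 CPM in flowthrough, at -5.02 ± 0.82 (SE, edgeR adjusted p = 5.62e-04), and Tnf was the other gene that was lower. The plot of relatives and partners gives all 61.

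**Figure D5:**
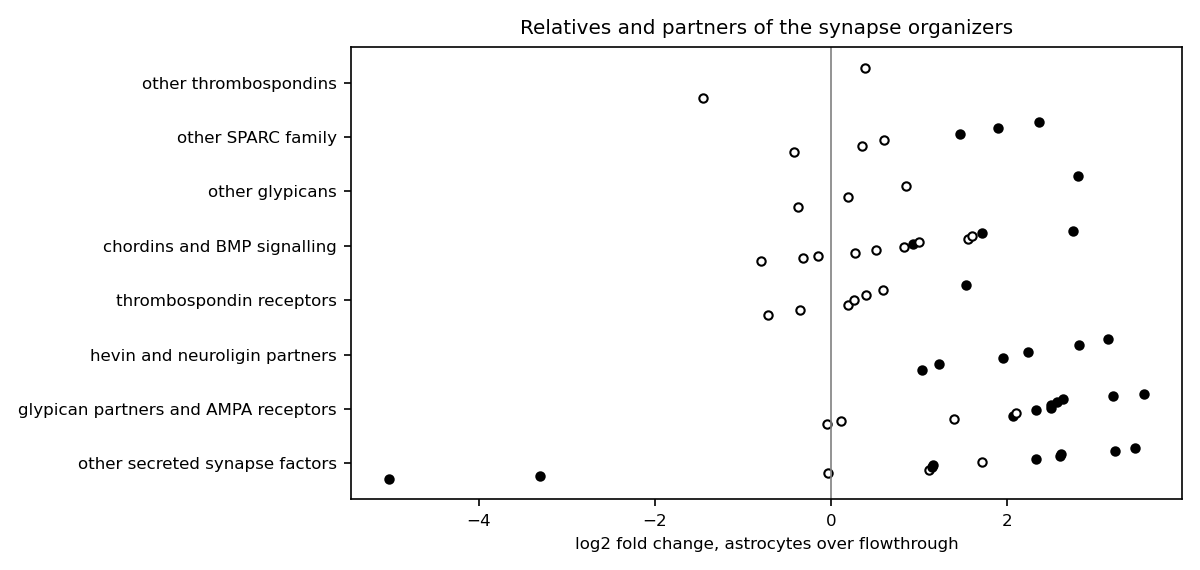
Log2 fold change of astrocytes over flowthrough for the 61 genes of the 8 lists, each point a gene and each row a list, with filled points for an edgeR adjusted p under 0.05. The 6 hevin and neuroligin partners are all filled and to the right of 0, and the filled points left of 0 are Tgfb1 and Tnf.

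None of these listed genes was called between aKO and WT in either fraction or in the difference between fractions, over 59 tested in astrocytes and 61 in each of the others. In astrocytes Chrd had the lowest unadjusted p, 0.0191, at 3.07 ± 1.22 CPM in aKO and 1.21 ± 0.145 CPM in WT and 1.17 ± 0.45 (SE, edgeR adjusted p = 0.9997). In 6 of the other 7 lists the lowest p was at Spock1 (0.71 ± 0.34), Comp (1.402 ± 0.776), Nptx2 (0.83 ± 0.54), Gpc3 (0.54 ± 0.44), Sema3a (0.86 ± 0.72) or Cacna2d2 (-0.46 ± 0.43). In flowthrough the lowest unadjusted p were 0.0381 for Tgfb1, at 20.0 ± 20.8 CPM in aKO and 3.35 ± 2.38 CPM in WT, and 0.0400 for Lrp1, at 133.5 ± 95.04 CPM in aKO and 64.0 ± 13.9 CPM in WT (SD, n = 2 each; edgeR adjusted p = 0.804 for both). For the difference they were 0.0425 for Tgfb1 and 0.0488 for Cacna2d2 (edgeR adjusted p = 0.956 for both).

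Within the 8 astrocyte libraries the organizers did not vary as a block. As log2(CPM + 1), Gpc4 and Thbs1 had a Pearson r of 0.90 (0.68 without the 2 libraries farthest from the median of Gpc4). For Chrdl1 and Thbs2 r was 0.86 (0.54 without the 2 farthest for Chrdl1). For Sparc it was 0.78 with Sparcl1 (0.39 without 2) and -0.68 with Thbs4 (-0.95 without 2). Among 9022 genes searched, the closest in pattern to Sparcl1 was Kcnip3, a calcium-binding protein gene, with r of 0.99 and the same rank order in all 8 libraries (0.996 without 2), followed by Gnaq. Among the closest to Sparc were Nrip3 (r of 0.96) and Bend6 (0.95). They were for Chrdl1 Acot11, Mvd and Fkbp14 (0.98 to 0.99), for Gpc6 Arl6ip4, Rgs3 and Fzd1 (0.97 to 0.99) and for Gpc4 Trip10, Npnt and Sin3b (all 0.98). Thbs1 was closest to Abhd2, Fitm2 and Cdh3 (0.99 each) and Thbs2 to Chfr, P4ha1 and Pcif1 (0.99 each). For Thbs4 the highest r was 0.85 with Ddit3 (0.43 without 2 libraries), followed by Scara3 and Tmem176a. With so many genes searched over 8 libraries, a high r is a description of these libraries.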

How the data were processed

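RNA-seq of bead-isolated astrocytes (8 libraries) and flowthrough (4) was analysed, with groups taken from the titles. The read counts per Ensembl gene were deposited by the authors; per the submitters' processing notes STAR 2.5.1a and featureCounts 1.4.6-p5 were used on GRCm38. The deposited CPM (counts scaled to the library total) and RPKM (CPM per kilobase of gene) were the authors' own and equalled those recomputed from counts. RNA was amplified with Takara Clontech SMARTer v1, per the labels' protocols. Which annotation release, strand setting and multi-mapping rule were used is not given in the sources used here. Depth is given with the results, and the floor of 3 counts covers counting error only. Values after ± are the SD between libraries or the SE of the fit, as marked.

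The tests used edgeR 4.0.16 under R 4.3.3 on counts (quasi-likelihood, robust, TMM, filterByExpr with minimum count 10 and minimum total 15), two-sided, with Benjamini-Hochberg adjustment over all genes tested and a threshold of 0.05. The aKO and WT astrocytes were compared in a fit of their own 8 libraries; 1 fit of 4 groups to all 12 gave the remaining 3 comparisons. SE is the log2 fold change over the square root of F. Fitted fold changes are shrunk slightly for low counts. Unnamed identifiers (1134 of 41388) stayed in the tests. The scripts were tested on simulated counts, with 100 genes changed 2-fold and 100 changed 4-fold in each comparison. In aKO against WT astrocytes 2% and 52% of these passed the edgeR threshold, and between fractions 3% and 67%. In aKO against WT flowthrough and in the difference of effects 0% passed at either size.

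The 8 genes, the lists and the design were chosen with earlier results of these data known. Named were all 8 genes, up to 2 genes per list with the smallest p in each comparison, 3 genes most alike each member, Arntl and the defining markers; Bmpr2 and Tnf were named after their values were seen. Some genes that the rule names are not reported here. Alternatives were DESeq2 1.42.0 and its size factors, library totals without TMM, exclusion of mitochondrial genes and Ttr, no filter, limma 3.58.1 voom (weighted samples), 202 as aKO, leaving out each library in turn, libraries aKO 222 and WT 265 or aKO 221 and aKO 222 left out, all 12 libraries in 1 fit, and a block for the animal. Equal numbers in both fractions were read as the same brain, as the series' design counts brains; deviations of such pairs from their group means correlated at r of 0.167, 0.404, 0.081 and 0.424 for animals 203, 205, 201 and 202 (flowthrough groups of 2 deviate in exact opposites). Title numbers were taken to name animals, and p-values measure the spread between these samples. No 2 libraries held identical values.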

Additional observations from a re-analysis of the deposited data

Results flagged for a closer look

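Thbs1 in aKO astrocyte library 205 was at 14.7 CPM, far from the other 4 aKO astrocyte libraries, which lay between 2.26 and 5.78 CPM. The gap to the nearest of them was 0.718 of the group's range, just above the 95% critical value for 5 samples. All 8 genes were examined in this way in the 5 aKO astrocyte libraries, and chance flags about 1 in 20 groups. The same library was also the highest of the group for Thbs2, Thbs4, Gpc4, Gpc6 and Chrdl1.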

How the results depend on the processing

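Chrdl1, Gpc6 and Thbs4 kept their direction and an edgeR (or DESeq2 or voom) adjusted p under 0.05 in astrocytes against flowthrough in all 23 alternatives; Thbs1, Thbs2 and Sparcl1 kept their direction in all 23 and passed in 10, 11 and 13. Over the 4 comparisons, 35 values of the 8 genes under an alternative no longer passed, 77 that had not passed changed sign and the others kept direction and side of the threshold; for the partners named by the rule, up to 2 per list and comparison, 1308 kept both, 5 newly passed, 1 no longer passed and 26 changed sign. The cause of these changes was not tested. Members past the threshold between fractions numbered 6, and 3 with library 202 as aKO and 3 to 6 with a library left out. Fewer than 6 also passed with the size factors of DESeq2, with library totals, without the filter and without aKO 222 and WT 265. The same held without aKO 221 and aKO 222 and on the 8 libraries of 4 animals without the block. Genes past the threshold between fractions numbered 3517, 5951 with a replicate block for the animal on 8 libraries of 4 animals (3562 on these libraries without it) and 1691 to 4107 with a library left out; no call of the 8 genes differed between the block and the fit of all 12 libraries, while on the same 8 libraries Thbs1 passed with the block and not without it (-1.11 and -0.97, adjusted p of 0.0371 and 0.191). For aKO against WT astrocytes the 5 genes became 8 without the filter, 15 with DESeq2, 0 with library 202 as aKO, 3 without aKO 222 and WT 265, 1 with all 12 libraries in 1 fit and 0 to 5 with a library left out (0 without WT 201, 2 without aKO 205, 3 without WT 265). For flowthrough the 0 became 45 without the filter and 0 to 1 with a library left out, and for the difference of effects 40 without the filter and 1 each without aKO 221 and aKO 222, with the block and on the same 8 libraries without it. Library totals without TMM moved the median log2 fold change of all genes to 0.17 in aKO against WT astrocytes, -0.20 in flowthrough, 0.34 between fractions and 0.39 in the difference.

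The following log2 fold changes had not passed and turned sign. In aKO against WT astrocytes, library 202 as aKO gave -0.14 for Thbs1, 0.82 for Sparc, 0.55 for Sparcl1, -0.31 for Gpc4 and 0.068 for Nrxn2. Sparc was 0.10 with library totals, 0.28 with voom and 0.013 without aKO 221 and aKO 222, which also gave -0.11 for Sema3a; Gpc4 was -0.13 with voom, and Bcan 0.15 without aKO 222 and WT 265. With a library left out they ran from -0.029 to 0.28 (Thbs2), -0.37 to 0.62 (Sparc), -0.84 to 0.22 (Sparcl1), -0.20 to 0.42 (Gpc4), -0.74 to 0.030 (Cacna2d2) and -0.87 to 0.014 (Bcan). In aKO against WT flowthrough, library totals gave -0.23 for Thbs1, -0.16 for Thbs2, -0.25 for Gpc4 and -0.048 for Thbs3; Thbs1 was -0.002295 without mitochondrial genes and Ttr, -0.059 without the filter and -0.039 without aKO 222 and WT 265, and Thbs4 was 1.31 with voom. With a library left out they ran from -0.42 to 0.56 (Thbs1), -0.030 to 0.17 (Thbs2), -1.53 to 5.76 (Thbs4), -1.83 to 0.18 (Sparc), -3.27 to 0.74 (Sparcl1), -0.37 to 0.51 (Gpc4), -3.63 to 1.12 (Chrdl1), -0.21 to 0.54 (Thbs3), -1.35 to 0.33 (Fstl1), -2.82 to 1.35 (Gpc5), -0.51 to 1.46 (Gpc2), -3.68 to 0.81 (Bmpr1b), -2.88 to 0.43 (Nlgn1), -1.91 to 0.79 (Nlgn3), -3.64 to 1.30 (Lrrtm4) and -3.40 to 0.91 (Ncan); Thbs4 at 5.76 is a fold against a library with 0 counts. Between fractions Sparc was 0.07473 with library totals, 0.11 with voom, 0.061 without aKO 222 and WT 265, 0.016 with the replicate block and 0.07468 on the same 8 libraries without it, and ran from -0.47 to 0.57 with a library left out, as Gpc4 did from -0.018 to 0.38. In the difference of effects, library totals gave 0.42 for Thbs2, 0.03577 for Thbs4 and 0.46 for Gpc4; library 202 as aKO gave -0.15 for Thbs1; without the filter Thbs2 was 0.03582 and Gpc4 0.073; without aKO 222 and WT 265 they were 0.058 and 0.11, without aKO 221 and aKO 222 0.099 and 0.16, with the replicate block 0.096 and 0.10, and on the same 8 libraries without it 0.098 and 0.17, with Smoc1 at 0.056; Gpc4 was 0.029 without mitochondrial genes and Ttr. With a library left out these ran from -0.15 to 0.93 (Thbs1), -0.15 to 0.22 (Thbs2), -6.65 to 0.65 (Thbs4), -0.25 to 1.76 (Sparc), -1.25 to 2.77 (Sparcl1), -0.45 to 0.45 (Gpc4), -1.54 to 3.21 (Chrdl1), -0.63 to 1.05 (Fstl1), -1.41 to 2.77 (Gpc5), -0.59 to 3.91 (Bmpr1b), -0.41 to 2.91 (Nlgn1), -0.90 to 1.80 (Nlgn3), -0.20 to 4.75 (Lrrtm4), -0.22 to 3.23 (Gria3) and -0.57 to 3.74 (Ncan). Leaving out a flowthrough library leaves 1 in its group, which is then assumed to vary like the others.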
